A study of Homo sapiens with 8 samples.

Results

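The replication-dependent histone genes supply the core histones H2A, H2B, H3 and H4 and the linker histone H1 that package newly copied DNA. They were taken as the protein-coding genes of GENCODE version 44 named H1-1 to H1-6 or with symbols that start with H2AC, H2BC, H3C or H4C and a number. This rule gave 70 of 19617 protein-coding genes, made up of 6 H1, 17 H2A, 19 H2B, 13 H3 and 15 H4 genes. The assay was ATAC-seq, which reads out accessible chromatin by letting Tn5, a transposase, insert adapters where DNA is exposed. The cells were HEK293T, derived from human embryonic kidney and expressing the large T antigen of SV40. A lentivector for H2A is named for 4 of the 8 libraries (H2A), and 1 for H2A(E92K) for the other 4 (E92K). E92K exchanges a glutamate of the acidic patch, a negatively charged surface of the nucleosome, for a lysine. All 8 libraries came from cells that carry a vector and were given no treatment, and no library without a vector was analysed here. The labels do not say which H2A gene the vectors encode, which promoter drives them, whether a line is 1 clone, or whether the replicates were separate cultures. A p-value here thus reflects the spread between libraries alone, and that spread may be technical.

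These genes have no introns, or few, and are transcribed mainly in S phase, when cyclin E and CDK2 activate the coactivator NPAT in nuclear foci called histone locus bodies. Their mRNAs end in a stem-loop bound by SLBP in place of a poly(A) tail. Most lie in a large cluster on the short arm of chromosome 6 and a smaller cluster on chromosome 1, and many H2A and H2B genes face away from each other across a short shared promoter. Known promoter elements include the TATA box, the CCAAT box bound by NF-Y, the octamer bound by POU2F1 in H2B promoters, the AC box of H1 promoters and the element bound by HINFP in H4 promoters.

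The promoter sequences of a few genes show how the types differ. The lines give the 200 bases before the RefSeq start of each gene on GRCh38.p14 (hg38), 5′ to 3′ on the strand of the gene. Capitals mark 5 words or their reverse complements. They are TATAAA of the TATA box, the CCAAT box, the octamer ATTTGCAT, the AC box word AAACACA, and GGTCCG, which is the core of the H4 element. H2AC17 had the largest difference between the groups and H2AC25 the strongest peak. H1-4 and H1-5, and H4C4 and H4C13, are pairs of the same type of which the former had a peak in every library and the latter in none. H3C2 stands for the H3 genes.
H2AC17, chr6:27893186-27893385, minus strand: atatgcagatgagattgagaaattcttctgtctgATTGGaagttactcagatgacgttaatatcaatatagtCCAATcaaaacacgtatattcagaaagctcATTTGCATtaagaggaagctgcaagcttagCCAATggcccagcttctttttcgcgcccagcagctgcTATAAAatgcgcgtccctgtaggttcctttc
H2AC25, chr1:228457874-228458073, minus strand: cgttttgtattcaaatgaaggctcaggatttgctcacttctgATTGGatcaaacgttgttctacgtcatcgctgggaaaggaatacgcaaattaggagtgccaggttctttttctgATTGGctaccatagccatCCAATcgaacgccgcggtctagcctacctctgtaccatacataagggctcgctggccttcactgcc
H1-4, chr6:26156129-26156328, plus strand: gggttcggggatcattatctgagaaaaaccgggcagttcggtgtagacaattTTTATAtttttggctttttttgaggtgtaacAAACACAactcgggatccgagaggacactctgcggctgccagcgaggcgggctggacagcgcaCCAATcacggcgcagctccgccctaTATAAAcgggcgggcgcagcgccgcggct
H1-5, chr6:27867589-27867788, minus strand: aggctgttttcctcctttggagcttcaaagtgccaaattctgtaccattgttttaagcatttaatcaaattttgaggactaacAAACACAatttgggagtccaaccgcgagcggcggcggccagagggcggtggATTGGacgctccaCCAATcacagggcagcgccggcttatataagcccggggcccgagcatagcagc
H3C2, chr6:26032100-26032299, minus strand: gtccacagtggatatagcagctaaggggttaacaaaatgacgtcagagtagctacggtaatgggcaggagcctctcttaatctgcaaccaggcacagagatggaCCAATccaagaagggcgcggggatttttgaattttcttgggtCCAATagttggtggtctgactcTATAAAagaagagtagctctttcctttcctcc
H4C4, chr6:26189113-26189312, minus strand: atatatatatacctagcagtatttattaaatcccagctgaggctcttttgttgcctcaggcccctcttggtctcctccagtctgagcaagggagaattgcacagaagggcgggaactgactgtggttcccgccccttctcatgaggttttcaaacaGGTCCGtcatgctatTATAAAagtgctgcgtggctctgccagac
H4C13, chr6:27873535-27873734, minus strand: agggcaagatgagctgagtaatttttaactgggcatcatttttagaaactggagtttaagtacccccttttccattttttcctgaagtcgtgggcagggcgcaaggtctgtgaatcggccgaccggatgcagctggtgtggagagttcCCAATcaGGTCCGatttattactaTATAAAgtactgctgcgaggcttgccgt

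Of the 70 genes 64 were matched to the RefSeq promoters, and the words were searched on both strands of the 250 bases before the start. The words differed between types, though H2A and H2B promoters had a like set. AAACACA stood in 6 of 6 H1 promoters and in no other histone promoter, against 3.51% of 15283 coding promoters. ATTTGCAT stood in 11 of 16 H2A and 14 of 18 H2B promoters and in no H1, H3 or H4 promoter, against 1.65% of coding promoters. GGTCCG stood in 12 of 13 H4 promoters and in 1 each of the H2A, H2B and H3 promoters, against 12.6% of coding promoters. The searched bases of divergent H2A and H2B genes can overlap, so 1 match can count for both genes. For ATTTGCAT this was so at several pairs, such as H2AC1 with H2BC1, H2AC6 with H2BC4, H2AC7 with H2BC7 and H2AC17 with H2BC17. At H2AC20 and H2BC21 it was so for both ATTTGCAT and GGTCCG. The 11 H2A and 14 H2B promoters with ATTTGCAT are thus not all separate observations. CCAAT was found in every matched H1, H2A, H2B and H3 promoter and in 3 of 13 H4 promoters, against 34.7% of coding promoters. TATAAA was found in 42 of 64 (65.6%), against 9.2%. No word contains another, though neighbouring words can share end letters, and a match is a description of the sequence, not a bound site. The median GC content of the same 250 bases was 43.2%, against 62.8% for coding promoters, and the median observed to expected CpG ratio was 0.783, against 0.752.

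Peak lists held 55527 to 62044 peaks per library, and the background behind the p-values was 2.23 to 2.93 fragments per position. All 6 marker genes of HEK293T (PAX2, SIX2, WT1, SALL1, NEFL and INA) had a promoter peak in all 8 libraries. Among marker genes of other cell types TNNT2 also had one in all 8 libraries, PTPRC and APOA1 each in 1 E92K library, and CD3E, ALB, CDH5, TEK and KRT5 in none. Promoters reached 1000 bp to each side of any start (TSS) of a basic protein-coding transcript, and a gene was open in a library where a peak touched it. In such bulk data fewer cells with an open promoter and less opening per cell cannot be told apart.

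Nearly every histone gene was open in all libraries or in none. A promoter peak was present in all 8 libraries at 46 of 70 genes (65.7%) and in no library at 23, and 1 gene, H3C4, differed between libraries. Among all coding genes 68.0% were open in all 8, and 6.34% differed between libraries. The count of 46 depends on the window. It was 43 with promoters of 500 bp, 48 with 2000 bp and 47 with the annotated gene start only. At H2BC9, which starts at 26251614, the counted peak is that of H3C7. It ended at 26250617 in H2A replicates 2 and 3, just inside the window. The H2A genes were open most often, at 15 of 17, followed by H2B at 14 of 19, H4 at 8 of 15, H1 at 3 of 6 and H3 at 6 of 13. The number open per library was 46 in each H2A library and in E92K replicate 1, and 47 in E92K replicates 2, 3 and 4.

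The open genes lay side by side with closed ones. Genes no more than 300 kb apart were put in 1 cluster, with 10 kb added at each end. The largest, chromosome 6 cluster 1 (chr6:25713397-26295638, hg38), spans 582.2 kb and had 23 of 34 genes open in all libraries. Chromosome 6 cluster 2 (chr6:27115897-27157562) had 4 of 5, cluster 3 (chr6:27797479-27903891) had 9 of 16, chromosome 1 cluster 1 (chr1:149772689-149897965) had 7 of 11 and chromosome 1 cluster 2 (chr1:228424777-228473104) had 2 of 2. Of the 2 genes that lie alone, H4C16 on chromosome 12 was open in all 8 libraries and H2BC12L on chromosome 21 in none.

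**Figure D1:**
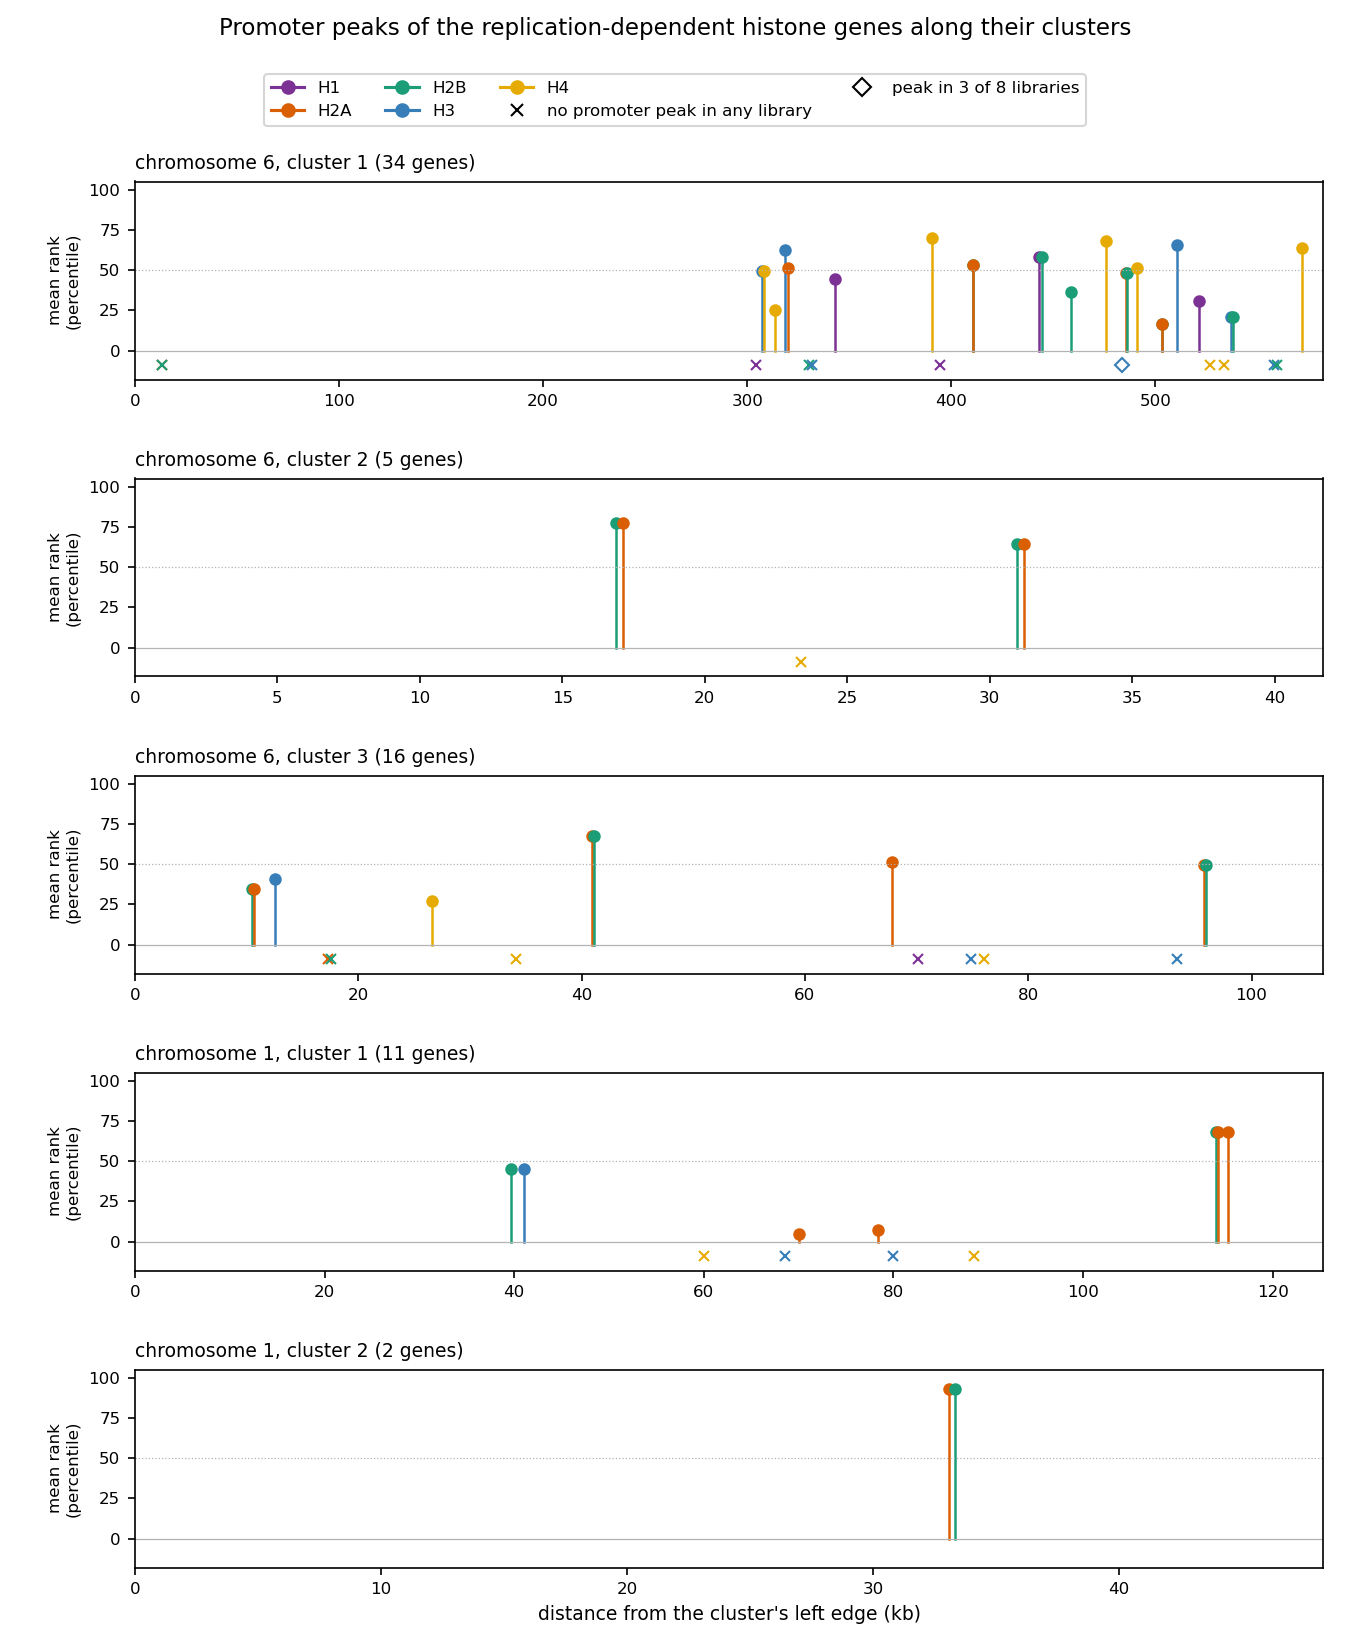
Histone genes along the 5 clusters, with the distance from the left edge of each cluster in kb on the horizontal axis and the mean strength rank over 8 libraries (percentile, defined in the text) on the vertical axis. Colours give the histone type, crosses the genes with no promoter peak in any library and the diamond H3C4, which had a peak in 3 of 8 libraries; open and closed genes alternate along the clusters, and 23 of 34 genes of chromosome 6 cluster 1 were open in all libraries.

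The 23 genes without a promoter peak were H1-1, H1-5 and H1-6, H2AC1 and H2AC14, and H2BC1, H2BC3, H2BC10, H2BC12L and H2BC14. Among the H3 genes they were H3C3, H3C8, H3C11, H3C12, H3C14 and H3C15, and among the H4 genes H4C6, H4C7, H4C9, H4C12, H4C13, H4C14 and H4C15. H2AC1, H2BC1 and H1-6 encode histones known from testis. Their nearest peak in any library lay 1859 bp (H1-5) to 38686 bp (H2BC12L) from the coding start. H3C12 had no peak at its coding start, but the annotated end of the gene, 2.3 kb upstream, lies under the peak of H2AC17, which was present in all 8 libraries.

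Copied sequence touched a few of the closed genes. Words of 50 bases within 1000 bp of the start were looked up in the whole genome. At H4C14, H3C14, H3C15, H4C15 and H2BC12L every word occurs elsewhere too, and reads from such stretches cannot be placed by their sequence. Most other closed genes had few such words, since 13 of the 23 had under 5% and the median was 3.0%. Among the 46 open genes the median was 2.95% and 4 had over 50%, namely H2BC18, H3C13, H2AC18 and H2AC19 in chromosome 1 cluster 1. Every 20th coding gene gave a median of 0.0%, with 3.17% of genes over 50%. How the authors treated reads that map to several places is not given in the sources used here, and its part in the presence of peaks was not tested.

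The words in the promoters were found at both open and closed genes. TATAAA was found in 30 of 43 matched open genes and 11 of 20 closed ones, ATTTGCAT in 19 of 43 and 6 of 20, and GGTCCG in 9 of 43 and 6 of 20. These counts pool the types, which differ both in their words and in the share of open genes. H2BC6 counts as open, though the start whose bases were searched, at 26183761, had no peak in any library. H1-4 and H1-5 above both carry AAACACA and CCAAT, and H4C4 and H4C13 both carry GGTCCG and TATAAA, with a peak at 1 gene of each pair only. The peak counted for H1-4 covers its start but had its summit of smallest p at the neighbouring H2BC5. No test was made of these shares.

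The peaks of the open genes were of middle significance and ranged widely. The strength rank of a gene is the percentile of the −log10 p of its strongest promoter peak among the 13345 coding genes open in all 8 libraries, so 50 is the middle in each library. The median rank of the 46 histone genes was 50.5 to 56.9 in the H2A libraries and 48.0 to 53.5 in the E92K libraries. Since neighbours share peaks, the 46 genes had 31 different sets of ranks, and the same value is given for genes under 1 peak.

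The highest ranks belonged to the divergent pair H2AC25 and H2BC26 of chromosome 1 cluster 2, with 90.9, 98.1, 93.5 and 91.4 in H2A and 90.2, 97.0, 95.7 and 87.0 in E92K replicates 1 to 4. Its groups overlapped throughout. The pair H2AC11 and H2BC11 had the next highest mean rank, 77.4. Of the H4 genes H4C3 was highest, with a mean rank of 70.1, and H4C16 lowest, with 23.5. Of the H3 genes H3C6 was highest, with 65.7, and H3C7 lowest, with 20.6, under a peak shared with H2BC9. The peak of H3C6 lies at the more upstream of its 2 annotated starts (26224199). It ended at 26224435 or before, short of the RefSeq start at 26225135. H3C13 had 45.3 from the peak of H2BC18, whose summit lay 1308 to 1418 bp after the start of H3C13. Of the H1 genes H1-4 was highest with 58.1 and H1-3 lowest with 30.9. The lowest H2B gene was H2BC8, which shares a peak with H2AC8, at 16.6.

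The lowest strength ranks of all were those of H2AC18 and H2AC19, which stand in a duplicated stretch. A separate peak at the start of H3C13 was weaker, but the stronger peak of H2BC18 stood for that gene. Ranked by the peak with the nearest summit, H3C13 had means of 5.2 in H2A and 6.0 in E92K, against 6.0 and 7.3 for H2AC18. H2AC18 had ranks of 6.1, 6.1, 4.0 and 1.3 in H2A and 5.2, 3.3, 8.0 and 5.5 in E92K replicates 1 to 4. H2AC19 had 15.7, 1.6, 3.1 and 8.5, and 4.2, 8.0, 9.3 and 8.7. Of their words 87.8% and 87.7% were copied, and the nearest summit lay 757 to 829 bp before the start of H2AC19 and 728 to 808 bp before that of H2AC18.

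Histone promoter peaks were wide and stood on a high local background, and they ranked lower by fold than by significance. The fold is the authors' enrichment of the summit over its local background, used here within each list only. The median fold rank of the open histone genes was 23.0 to 27.2 over the 8 libraries, and their median fold was 6.18 to 6.785, against 8.158 to 8.683 for all open coding genes. The fragments piled up at the summit, recovered from the fold and p-value, had a median of 142 to 188 per library against 122 to 155. The local background had a median of 24.0 to 28.6 fragments against 13.5 to 17.0, the peak width 1580 to 1850 bp against 1040 to 1140 bp, and the mean number of summits per peak was 1.72 to 2.04 against 1.41 to 1.46.

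The types differed in this. H2A and H2B genes, of which many lie in divergent pairs, had a median local background of 25.5 to 36.3 and 25.5 to 33.5 fragments per library, against 16.2 to 20.6 for H3 and 16.6 to 21.2 for H4. The median width was 1630 to 1920 bp for H2A, 1750 to 1940 bp for H2B, 1840 to 2040 bp for the 3 open H1 genes, 1350 to 1420 bp for H4 and 916 to 1240 bp for H3. The fold rank had a median of 37.3 to 48.8 for H4 and 16.6 to 22.8 for H2A over the libraries. H3C6, H2AC16, H4C3 and H4C4 had the 4 highest mean folds, at 11.72, 11.59, 10.58 and 10.33. H3C6 had folds of 12.07, 12.08, 11.65 and 11.84 in H2A and 12.01, 12.02, 11.58 and 10.48 in E92K replicates 1 to 4.

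**Figure D2:**
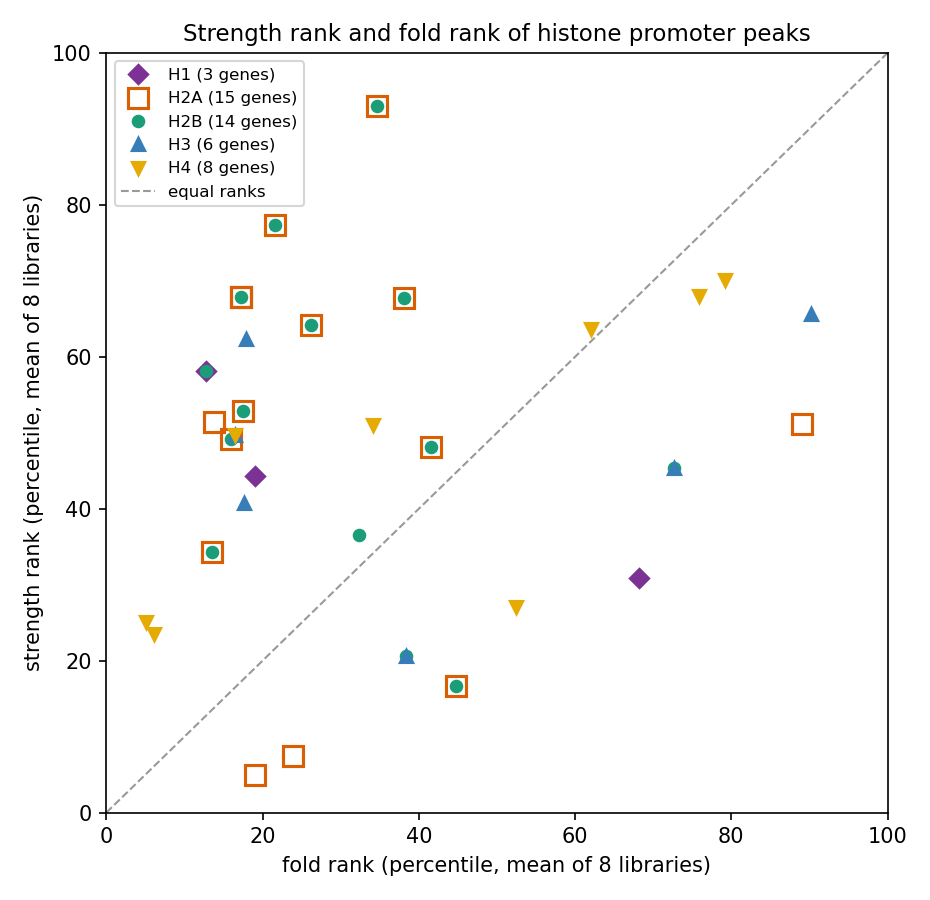
Mean fold rank (horizontal, percentile) against mean strength rank (vertical, percentile) over 8 libraries for the 46 open histone genes, with the marker and colour giving the type and the dashed line equal ranks. Most H2A and H2B genes lie to the upper left of the line, such as H2AC25 with H2BC26 at a strength rank of 93.0, while H3C6 and H2AC16 lie to its right.

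Most summits sat close to the starts. In the divergent pair H2AC17 and H2BC17 the nearest summit lay between the starts, 63 to 155 bp before that of H2AC17 and 85 to 177 bp before that of H2BC17 over the 8 libraries. For H4C4 it lay 0 to 72 bp and for H3C10 28 to 89 bp after the start. Only the summit of smallest p was kept for each peak, and for a few genes it lay farther away. The kept summit nearest to H2BC9 lay 1407 to 1590 bp before its start, at or just past the end of the neighbouring H3C7. The one nearest to H1-4 lay 1709 to 1771 bp after its start, at the start of H2BC5. That peak covers the starts of both H1-4 and H2BC5, and where any further summits in it lie was not examined.

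**Figure D3:**
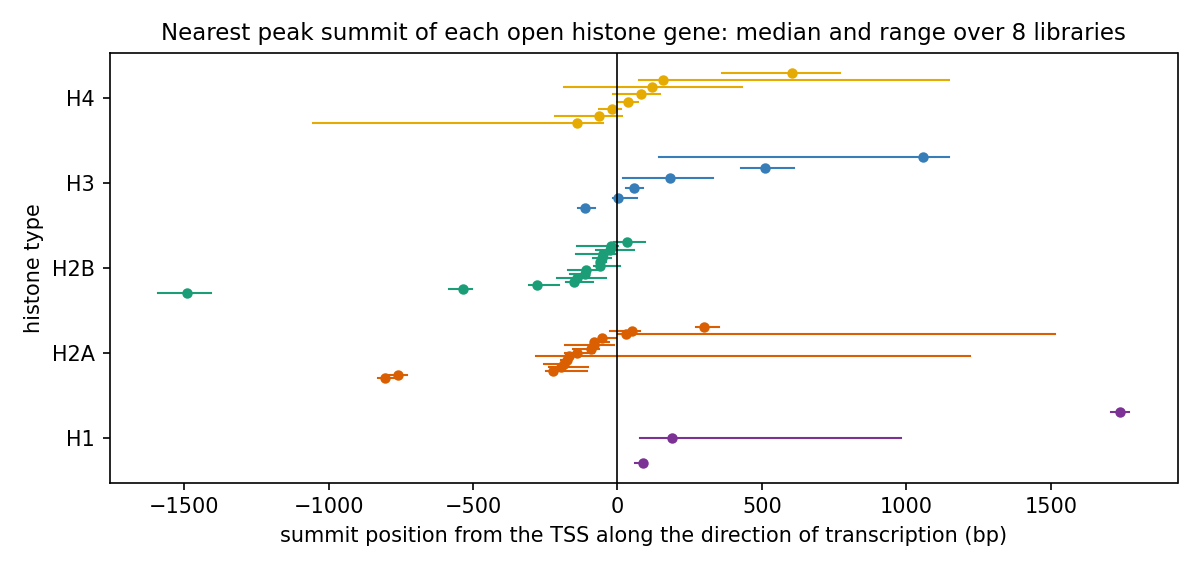
Position of the nearest peak summit from the start of each of the 46 open histone genes in bp along the direction of transcription (horizontal), by histone type (vertical). Each peak is represented by its summit of smallest p alone. Points are medians over 8 libraries and lines the range. H2A and H2B summits lie mostly before the start, and the outlying points include H2BC9 (1407 to 1590 bp before) and H1-4 (1709 to 1771 bp after).

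H2A and E92K libraries were compared to ask whether accessibility at the genes that encode histones differed with the mutant H2A. No histone gene was open in all 4 libraries of 1 group and in none of the other, and 6 of 19617 coding genes (0.0306%) were. Fisher's exact test per gene with Benjamini-Hochberg adjustment called no gene at all (0.0%), since with 4 against 4 its smallest p is 0.0286. The only histone gene with a difference in presence was H3C4, open in 0 of 4 H2A and 3 of 4 E92K libraries, as seen in 0.0612% of coding genes with 3 or 4 E92K and no H2A libraries.

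The H3C4 difference came from the edge of a neighbouring peak. The peak of H2AC7 and H2BC7, whose best summit lay 2044 to 2190 bp upstream of H3C4 in the 3 libraries, began at position 26198005, 26197980 and 26197966 of chromosome 6 in E92K replicates 2, 3 and 4. It began at 26198411, 26198516, 26198370 and 26198366 in the H2A libraries and at 26198438 in E92K replicate 1. The peak thus reached into the 1000 bp window of H3C4, whose start is at 26197286, in the former 3 libraries only. With a promoter of 500 bp no library and with 2000 bp every library had a peak there.

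No histone gene differed in strength rank after adjustment. In limma's test of the ranks of 13345 genes with Benjamini-Hochberg adjustment, 2 coding genes (0.015%) passed an adjusted p of 0.05. They were EEF1A1, whose mean rank was 96.0 in H2A and 83.0 in E92K libraries, and KRT8, with 5.3 and 34.8, named here after their values were seen. Of the 46 histone genes 8 had an unadjusted p under 0.05, H2BC6 higher and the others lower in E92K, against 3.44% of genes lower and 3.42% higher in E92K. The 4 H2A and 4 E92K ranks did not overlap at 5 histone genes, under 3 peaks, all lower in E92K, against 2.05% of coding genes (3.93% in either direction). None was higher in E92K without overlap, against 1.87% of coding genes.

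H2AC17 and H2BC17, which encode an H2A and an H2B and share a divergent promoter, had the largest difference. Their rank was 61.0, 57.9, 52.5 and 56.1 in H2A and 34.6, 42.6, 41.2 and 47.7 in E92K replicates 1 to 4. The lowest H2A library thus stood above the highest E92K library. The means were 56.9 ± 3.5 and 41.5 ± 5.4 (SD, n = 4 each), a difference of -15.4 percentile points, with an unadjusted p of 0.00216 and an adjusted p of 0.527 in limma. The summit held 212, 198, 191 and 229 fragments in H2A and 141, 193, 157 and 164 in E92K replicates 1 to 4. The smallest background recovered in each list was 2.52 to 2.93 fragments in H2A and 2.23 to 2.68 in E92K libraries.

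H2AC12 and H2BC12, another divergent pair, had ranks of 66.0, 74.1, 83.1 and 61.9 in H2A and 64.8, 58.3, 51.0 and 53.9 in E92K replicates 1 to 4. The highest E92K library overlapped the lowest H2A library. The difference was -14.2 points, with an adjusted p of 0.602 in limma.

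H2AC7 and H2BC7, whose peak reached toward H3C4, had ranks of 54.0, 59.9, 55.7 and 47.7 in H2A and 42.9, 47.3, 41.1 and 36.4 in E92K replicates 1 to 4. These groups did not overlap, by a margin of less than 1 point. The difference was -12.4 points, with an adjusted p of 0.612 in limma. With its edge nearer to H3C4, the peak was wider in those 3 E92K libraries, at 1918, 1864 and 1876 bp against 1438 to 1705 bp in the other 5. This width reflects the same edge and is no separate observation.

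H3C2, an H3 gene chosen after its values were seen because its groups did not overlap, had ranks of 65.7, 72.1, 66.4 and 66.0 in H2A and 51.3, 55.4, 63.8 and 57.4 in E92K replicates 1 to 4. Its difference was -10.6 points, with an adjusted p of 0.711 in limma.

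On the other side H2BC6 had the smallest p. Its rank was 37.6, 22.9, 22.5 and 42.5 in H2A and 41.1, 40.4, 46.5 and 38.7 in E92K replicates 1 to 4, a difference of 10.3 points with an adjusted p of 0.711 in limma. The groups overlapped, with H2A replicates 2 and 3 far below the rest. This peak lies at the more upstream of 2 annotated starts (26172059), in a region that overlaps the long noncoding RNA gene H2BC6-AS1. The other start, 11.7 kb away at 26183761 and the one RefSeq gives, had no peak in any library. H4C8 had ranks of 61.4, 58.1, 64.2 and 54.0 in H2A and 63.7, 66.0, 66.6 and 75.1 in E92K replicates 1 to 4, which overlapped by 1 library of each group. Its difference was 8.4 points, with an adjusted p of 0.746. H3C1 with H4C1 had a difference of 7.5 points and H1-3 of 4.8 points, with adjusted p of 0.799 and 0.848.

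H2AC4 had a difference of 11.2 points with an adjusted p of 0.812, and its value turned on the window. Its ranks were 65.7, 72.1, 14.8 and 30.6 in the H2A libraries, where replicates 1 and 2 have the rank of H3C2 next to it. In the E92K libraries they were 51.3, 55.4, 63.8 and 57.4, each the rank of H3C2. The peak of H3C2 touched the window of H2AC4 in H2A replicates 1 and 2 and in every E92K library, but not in H2A replicates 3 and 4. With a promoter of 2000 bp the difference was -10.5 points, the reverse sign.

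**Figure D4:**
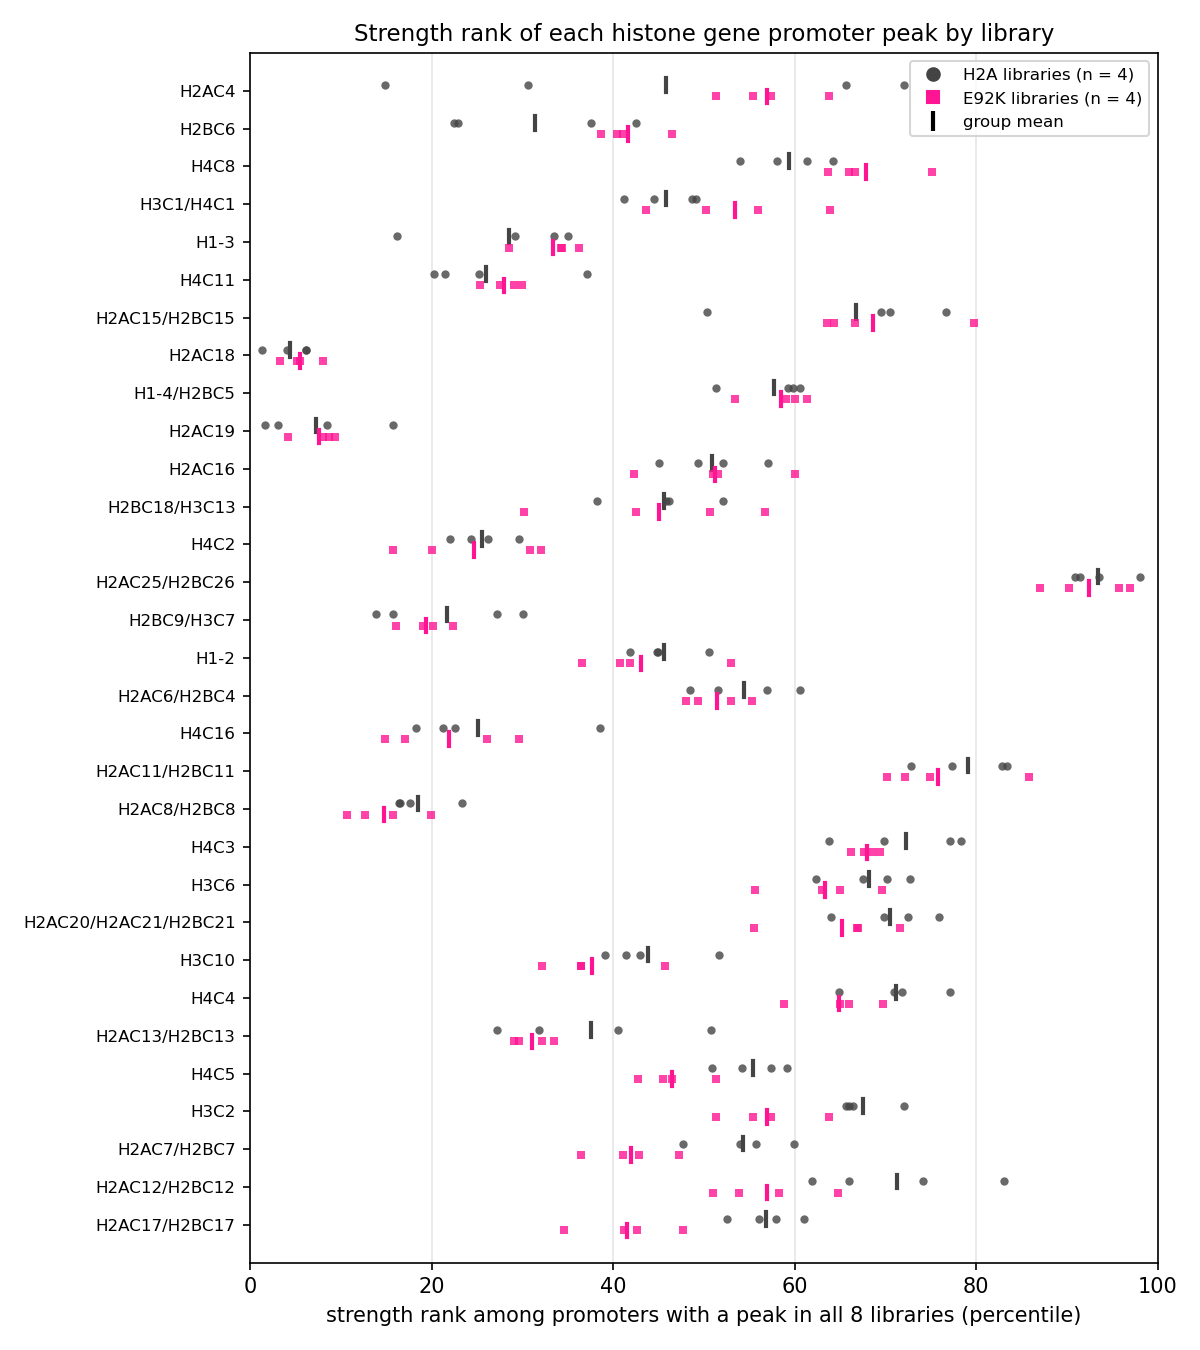
Strength rank (horizontal, percentile among 13345 coding genes) of the 31 different peak sets of the open histone genes, with genes under 1 peak joined by a slash; circles are the 4 H2A libraries, squares the 4 E92K libraries and bars the group means. Rows are ordered by the difference of the means, from H2AC4 (11.2 points, highest in E92K) at the top to H2AC17/H2BC17 (-15.4 points) at the bottom.

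More histone genes had a lower than a higher mean rank in E92K, by small amounts. The mean was lower in E92K at 32 of 46 genes (69.6%), with a median difference of -3.0 points, against 50.1% and -0.01 points over all coding genes. Counted by peak it was 20 of 31 (64.5%). By type it was lower at 10 of 15 H2A, 11 of 14 H2B, 5 of 6 H3, 5 of 8 H4 and 1 of 3 H1 genes. By fold rank it was lower at 36 of 46 (78.3%), against 50.8% of all coding genes. No test was made of these shares, since genes under 1 peak and of 1 cluster are not independent.

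Other genes that share a feature with the histone genes varied in this count. The mean strength rank was lower in E92K at 17 of 31 other open coding genes between 25 and 29 Mb of chromosome 6 (54.8%), with a median difference of -1.99 points. Of the 4 other open coding genes in the clusters or beside H4C16 it was lower at 3, with a median of -3.8 points and 2 without overlap, and 1 of the 4 shares the peak of H2AC7. It was lower at 54.4% of 1077 other genes whose 250 bases had a GC content of 50% or less, with a median of -0.29 points, and at 49.1% of 2262 others with peaks of 1500 bp or more, with 0.08 points. These sets were chosen after the counts above were seen, and the part of position, GC content or width in the result was not tested. The part of the lower range of the smallest recovered background in E92K was not tested either.

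The fold ranks called no gene, and not every pair without overlap by strength was without overlap by fold. No coding gene passed an adjusted p of 0.05 in limma (0.0%), and 965 had an unadjusted p under 0.05. Of the 46 histone genes 4 had an unadjusted p under 0.05, against 3.5% of coding genes lower and 3.73% higher in E92K, and the groups did not overlap at 5, against 4.17% of coding genes in either direction. H2AC7, H2BC7, H3C2 and H4C5 were lower in E92K, against 2.25% of coding genes, and H4C8 was higher, against 1.92%. The folds of H4C8 were 8.73, 8.94, 9.14 and 8.75 in H2A and 9.66, 9.14, 9.28 and 10.80 in E92K replicates 1 to 4. In ranks all 4 E92K libraries stood above the H2A libraries. H2AC17 and H2BC17 had mean fold ranks of 19.9 in H2A and 12.1 in E92K, and here their groups overlapped. The unadjusted p was 0.0224 in limma. H2AC12 and H2BC12 had 29.7 and 22.8, with an unadjusted p of 0.137 in limma.

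The clusters hold more than promoters. The 8 lists merged into 60 regions in the 5 clusters and within 10 kb of the lone gene H4C16, of which 31 touched a histone promoter, 6 another coding promoter only and 23 lay between the genes. All 31 at histone promoters were present in all 8 libraries, as were 12 of the 23 between the genes, against 38.1% of 96872 regions of the genome. A promoter without a peak gives no region, so the 31 leave out the closed genes. The regions of the genome were also narrower, with a median of 645 bp against 1956 bp at histone promoters. Counted by gene, 65.7% of histone and 68.0% of all coding genes were open in all 8 libraries. Ranked among the 36895 regions present in all libraries, the regions at histone promoters had a median percentile of 80.9 and those between the genes 48.8. The 11 other coding genes in these stretches included 4 open in all libraries, namely BOLA1, TRIM38, an unnamed gene that shares the peak of H2AC7, and H2AJ, which lies beside H4C16. HFE was open in 3 H2A libraries and 1 E92K library, SLC17A1 in 3 and 4, and SLC17A2 in 0 and 1.

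The strongest region between the genes lay in the long noncoding RNA gene LINC02980 (chr6:25991941-25993594), at a mean percentile of 93.3 among regions. Transfer RNA genes underlay the next ones. The region at chr6:27902008-27903721 covers TRX-CAT1-7 and TRG-GCC2-3 and had a mean percentile of 85.8, and the one at chr6:27157172-27158466 covers TRH-GTG1-5 and had 63.2. A region 5366 bp from the closed gene H2AC1 (chr6:25720214-25721196) had 55.5.

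None of these regions was present in all 4 libraries of 1 group and none of the other, as 0.323% of all regions were, and none passed an adjusted p of 0.05 in limma's test of ranks, as 0.369% of regions did. The smallest adjusted p among them was 0.183. An unadjusted p under 0.05 was found at 6 of 45 regions, against 10.7% of all regions, and the groups did not overlap at 3, against 6.2%. Outside promoters the difference closest to the threshold was at chr6:27126894-27127551, 5199 bp from H2BC11, with percentiles of 61.3, 69.7, 63.6 and 58.1 in H2A and 46.8, 50.2, 53.7 and 55.5 in E92K replicates 1 to 4. All E92K values lay below all H2A values, as at 2.63% of all regions, and the adjusted p was 0.3212 in limma.

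The genes that run histone expression were open throughout. Of 36 genes listed for histone transcription, mRNA processing and chaperoning, 36 had a promoter peak in all 8 libraries, with mean ranks from 18.9 to 99.6 and a median of 63.8. NPAT, the coactivator of histone genes, had a mean rank of 99.6, and HINFP, the factor of the H4 element, 97.1. ASF1B, a histone chaperone, stood at 95.7, TBP, which binds the TATA box, at 93.0, POU2F1, which binds the octamer, at 63.5, and CCNE1, which encodes cyclin E, at 19.5. None passed an adjusted p of 0.05 in limma, and the smallest adjusted p was 0.6116. The groups did not overlap at 3 of them, each higher in E92K, against 1.87% of coding genes. These were SLBP, with means of 73.0 ± 4.7 and 83.0 ± 3.6 (SD, n = 4), CDK2, the kinase that acts with cyclin E, with 47.5 ± 5.3 and 54.9 ± 2.4, and CHAF1B, a subunit of the chromatin assembly factor CAF-1, with 53.4 ± 4.0 and 66.1 ± 3.5.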

How the data were processed

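Processed peak lists of 8 ATAC-seq libraries were used, 1 headerless list per library in narrowPeak layout, with reads aligned to hg38 per the labels. The sources used here give no aligner, peak caller, read shift or handling of duplicates and multimapping reads, and each can change widths and significance. In the deposited lists the score is a whole number that tracks the q-value, the fold is a ratio of summit to local background, and significance is stored as −log10 of the p-value and of the q-value, the latter at least 2. Groups and replicate numbers come from the sample titles.

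A peak was a distinct interval, represented by its summit of smallest p. The strongest peak that touched a promoter by 1 bp stood for the gene. Ranks were taken within each list among the features with a peak in all libraries, turned into normal scores and tested with limma 3.58.1 in R 4.3.3 with a trend and Benjamini-Hochberg adjustment. Presence was tested with Fisher's exact test. Pileups were recovered from fold and p-value as Poisson counts within 0.001 of the −log10 p in at least 99.84% of the peaks checked (every 20th). Intervals shared by 2 lists were at most 0.13% of the shorter list. The limma step was tested on simulated data. Promoter sequences are from RefSeq, and annotation is GENCODE version 44.

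The members and lists were chosen with earlier results of these data known. Named are genes whose presence differs, those past an adjusted p of 0.05, the 6 with the smallest p in each direction with their peak partners, the highest and lowest of each type, those without a peak, and the 5 strongest regions between genes. Alternatives were a q-value of 1e-05 or less, promoters of 500 and 2000 bp, the gene start only, equal numbers of peaks, an overlap of 100 bp, the nearest summit, a replicate block, exact permutation, whole-list percentiles and leaving out each library. A marker gene of another cell type is not reported here.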

Additional observations from a re-analysis of the deposited data

Results flagged for a closer look

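Within the groups of 4 libraries, 62 sets of ranks under 31 peaks were examined for a library far from the other 3, and 3 were marked, where chance alone marks about 1 in 20. H3C2 stood at 72.1 in H2A replicate 2, against 65.7 to 66.4 in the other H2A libraries. H1-4 with H2BC5 stood at 51.3 in H2A replicate 4, against 59.3 to 60.6. H2BC8 with H2AC8 stood at 23.3 in H2A replicate 1, against 16.4 to 17.6.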

How the results depend on the processing

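No histone gene passed an adjusted p of 0.05 in strength or fold rank, and no region at the clusters or H4C16 in strength rank, under the alternatives run. The exact permutation test is left out of this count, since its smallest p of 0.0286 gave adjusted p of at least 0.728 for strength ranks, 0.686 for fold ranks and 0.461 for regions, so it could call none. Of 180 other alternative values of the 12 genes named for their smallest p, 179 kept their direction and stayed short of the threshold, with adjusted p from 0.393 to 0.995. The exception was H2AC4, at -10.5 points with a promoter of 2000 bp, where the peak of H3C2 was counted in every library. The excess of libraries with an H3C4 peak in E92K, 3, became 0 with 500 and with 2000 bp. Leaving out 1 library at a time gave 0 to 1 histone genes open in all libraries of 1 group and none of the other, and the 1 was H3C4 without E92K replicate 1. It gave 6 to 9 histone genes with non-overlapping strength ranks (5 with all libraries, 9 without H2A replicate 4 or E92K replicate 1) and 5 to 10 with non-overlapping fold ranks (10 without H2A replicate 3, 8 without E92K replicate 4); fewer libraries overlap less by construction. Over all coding genes the count open in 1 group only went from 6 to 9 to 20, and the 313 such regions became 552 to 634. The 2 coding genes called by strength rank became 1 with promoters of 500 or 2000 bp or whole-list percentiles, 0 with the gene start only or the nearest summit (and with exact permutation, which could call none), and 0 to 3 without 1 library. By fold rank 0 became 1 with q-values of 1e-05 or less, 4 with 2000 bp, and 0 to 1 without 1 library. The 136 regions of the genome became 63 with whole-list percentiles, 0 with exact permutation, as it must, and 16 to 97 without 1 library; the causes were not tested. Samples with the same replicate number did not deviate together (correlations of -0.175, 0.089, -0.035 and -0.099). With a replicate block the count of coding genes called was 0 and of regions 48, and of histone genes 0. The depth, a median of 28 to 33 fragments at a summit, limits what can be called open, so a promoter without a peak is one not detected at this depth.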
